A study of Mus musculus with 8 samples.

Results

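The comparison set cultured mouse peritoneal macrophages that received nicotine before lipopolysaccharide (LPS) against macrophages that received LPS alone. Its members were 4 of the 8 libraries of the series, 2 a side, chosen by their labels: nicotine before LPS in α7nAChR-/- and in wild type cells, and LPS alone in α7nAChR-/- and in wild type cells. All mice were C57BL/6, and α7nAChR-/- mice lack Chrna7, the gene of the α7 nicotinic receptor for acetylcholine. Nicotine was given at 10 µM for 15 min, cells without nicotine received vehicle for that time, and LPS followed at 100 ng/ml for 4 h. The other 4 libraries (nicotine without LPS, and vehicle, in each genotype) enter only where the effect of nicotine with LPS is set against that without it. Each of the 8 groups was 1 library, so a genotype's pair of libraries had no replicate, and the labels did not say how many animals or preparations stood behind a library.

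LPS is a component of the outer wall of Gram-negative bacteria. Macrophages sense it through the receptor TLR4 with CD14 and MD-2, and answer through NF-kB and MAP kinases with cytokines and chemokines and, through a second branch, with interferon β. Interferon β acts back on the cells through JAK kinases and STAT proteins and turns on antiviral genes. Nicotine binds nicotinic acetylcholine receptors, among which α7 on macrophages is known from work on the vagus nerve as a brake on cytokine release. The transcription factor ATF4, named often below, is made when the kinases that sense missing amino acids or misfolded protein slow translation, and drives genes of amino acid supply.

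Values were FPKM, mapped fragments scaled for transcript length and library size, and how libraries were scaled is not given in the sources used here. Changes are differences of log2(FPKM + 1), a scale on which low genes appear to change less than they do. Where a pair of values is given for a treatment, the knockout library's value stands before the wild type library's. Genes were tested in limma with genotype as a block, so a gene's own spread is the difference between the nicotine effects of the 2 genotypes. That spread has 1 residual degree of freedom and was drawn towards a trend shared by all genes, with 4.11 prior degrees of freedom. The shared trend thus weighs more in each SE and p-value than the gene's own spread. Errors are SE, and the threshold is a Benjamini-Hochberg adjusted p of 0.05. Such a p-value rests on how these 4 libraries vary and on nothing wider, and that variation may be technical. An exact permutation test of 1 gene, with 2 libraries against 2, cannot go below a two-sided p of 0.333. Chrna7 had 0 FPKM in every one of the 8 libraries, also in wild type cells, so it did not check the genotype labels. Summed FPKM was 627160 and 657052 with nicotine before LPS, against 854016 and 795630 with LPS alone. The macrophage genes Lyz2 (lysozyme) and Adgre1 (F4/80) stood at 17576 to 25861 FPKM and 298 to 421 FPKM over the 4 libraries, so the cells carried the markers of their label. Low values can be failed estimates, since Gapdh, which every cell uses, was listed at 3.46 and 2.11 FPKM with nicotine before LPS, against 2.90 and 8.90 FPKM with LPS alone.

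Nicotine before LPS changed a large part of the measured genes, downwards in inflammatory and interferon genes and upwards in amino acid stress genes. Of 24339 genes, 8014 reached 5 FPKM in any of the 4 libraries and were tested, and 4403 of them (54.9%) passed. Of these, 2084 rose (26.0% of genes tested) and 2319 fell (28.9%), around a median log2 change of -0.06 over all genes. By size alone, 2075 genes (25.9%) were at least 2-fold apart in the same direction in both genotypes, 935 higher (11.7%) and 1140 lower (14.2%). A single gene, Erdr1, was 2-fold apart in opposite directions, with 5.01 and 0.147 FPKM with nicotine before LPS against 1.71 and 3.92 FPKM with LPS alone. Leaving out 1 library leaves 3 and no block, so that the difference between genotypes enters the spread. The count was then 1927 without the knockout and 655 without the wild type library given nicotine before LPS, and 1552 without the knockout and 1934 without the wild type LPS library. A filter of 1 FPKM gave 5311 calls, and no filter on low values 163, among which Ch25h and Plau were the 2 that remained of the 202 called genes named here.

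**Figure D1:**
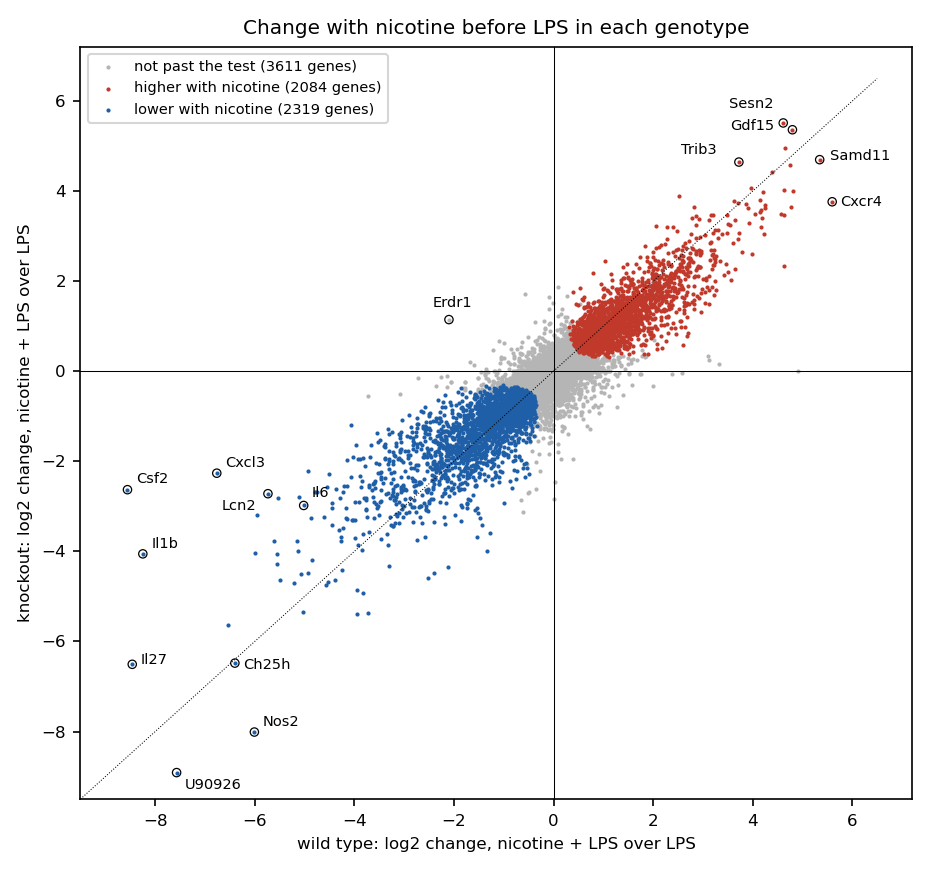
Each point is 1 of the 8014 genes tested; the x axis gives its log2 change (nicotine before LPS over LPS alone) in the wild type pair and the y axis that in the knockout pair, red and blue mark genes past the test, and the dotted line marks equal change. The called genes lie in the upper right (2084 higher) and lower left (2319 lower) parts of the plot, and Csf2, Cxcl3, Il1b and Lcn2 lie far above the line, with larger falls in wild type.

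The 15 largest falls included 5 cytokine genes and several enzymes and receptors of activated macrophages. Il27, a cytokine that shapes T cell responses, had 6.41 and 0.506 FPKM with nicotine before LPS, against 673 and 529.5 FPKM with LPS alone (log2 change -7.48 ± 0.46, adjusted p = 0.00106). Nos2, the inducible nitric oxide synthase, had 3.61 and 1.56 FPKM with nicotine before LPS, against 1189 and 164 FPKM with LPS alone (-7.01 ± 0.47, adjusted p = 0.00107). Both were near 0 in each nicotine library and high in each LPS library, with no overlap between groups. The groups did not overlap in 39.6% of all genes tested in the lower and 36.6% in the higher direction. Ch25h, whose product makes an antiviral oxysterol, had 11.0 and 9.02 FPKM with nicotine before LPS, against 1069.6 and 845 FPKM with LPS alone (-6.44 ± 0.17). U90926, a gene on chromosome 5, showed the largest fall of all, 0.802 and 0.269 FPKM with nicotine before LPS against 867 and 240.0 FPKM with LPS alone (-8.24 ± 0.34). In Il27 the change was -6.51 in knockout and -8.46 in wild type pairs, and in Nos2 -8.01 and -6.01, so that neither genotype had the larger change throughout. Others among the 15 were Il1b, Csf2, Csf3 and Il12a, described below, and Slfn4 (-5.19), Il1bos (-5.07), the fatty acid receptor Gpr84 (-5.01), the uridine phosphorylase Upp1 (-4.96), the immunity GTPase Iigp1 (-4.81) and the adenosine receptor Adora2b (-4.79). Il1bos lies antisense to Il1b and overlaps part of it. The library kit does not mark strand, so reads of the shared stretch cannot be told apart, and Slfn4 can share reads with related Schlafen genes. Nos2, Upp1 and Iigp1 lost the call without the wild type library given nicotine before LPS (adjusted p = 0.0517, 0.064 and 0.0695), and Upp1 without the knockout LPS library (adjusted p = 0.0637). Iigp1 lost it without either LPS library (adjusted p = 0.108 without the knockout and 0.0537 without the wild type one).

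Of 26 inflammatory cytokine genes tested, 23 fell and 2 rose, with a median log2 change of -2.86. Il1b, encoding interleukin 1β (chromosome 2, 129364570 to 129371139, minus strand, GRCm38), had 1076 and 63.2 FPKM with nicotine before LPS, against 17894 and 19504 FPKM with LPS alone (-6.15 ± 0.94, adjusted p = 0.00562). Il6, encoding interleukin 6, had 1274 and 242 FPKM with nicotine before LPS, against 10058 and 7857 FPKM with LPS alone (-4.00 ± 0.48, adjusted p = 0.00302). In both genes the wild type library given nicotine lay lowest, the knockout one between it and the LPS libraries, and the groups did not overlap. Csf2, a growth factor of granulocytes and macrophages, had 3.05 and 0.607 FPKM with nicotine before LPS, against 24.1 and 604 FPKM with LPS alone (-5.59 ± 1.32, adjusted p = 0.0192). The wild type LPS library stood far above the knockout LPS library in this gene, so its change differed most between genotypes (-2.63 in knockout and -8.56 in wild type pairs). Csf3, which drives neutrophil production, fell in both (-4.48 in knockout and -4.92 in wild type pairs).

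The subunits of the interleukin 12 family fell together. Il12a had 6.76 and 0.702 FPKM with nicotine before LPS, against 149 and 79.1 FPKM with LPS alone (-4.92 ± 0.32). Il12b, the shared chain of interleukins 12 and 23, had 18.6 and 12.3 FPKM with nicotine before LPS, against 101 and 138 FPKM with LPS alone (-2.89 ± 0.28), and Il23a 10.1 and 1.37 FPKM with nicotine before LPS, against 42.4 and 41.2 FPKM with LPS alone (-3.06 ± 0.51). Ebi3, the partner chain of Il27, fell less (20.9 and 9.78 FPKM with nicotine before LPS, against 46.9 and 29.7 FPKM with LPS alone). Il1a fell by 3.11 on the log2 scale, Il18 by 4.02, Il15 by 3.44, Il19 by 4.40 and Lif, a cytokine that signals through STAT3, by 3.35. The antagonist of interleukin 1, Il1rn, fell too (412 and 439 FPKM with nicotine before LPS, against 3496 and 1313 FPKM with LPS alone, -2.33 ± 0.38).

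Tnf moved little beside these. It had 2821 and 3118 FPKM with nicotine before LPS, against 4794 and 4806 FPKM with LPS alone (-0.69 ± 0.18, adjusted p = 0.024). All 4 libraries held it at a high level, those given nicotine lay lower, and with quantile scaling the sign turned (0.07), so its direction depends on the scaling. Il10, an anti-inflammatory cytokine, was 1 of the 2 that rose, with 104 and 48.7 FPKM with nicotine before LPS, against 52.8 and 29.0 FPKM with LPS alone (0.85 ± 0.17, adjusted p = 0.0126). Its wild type nicotine value was below the knockout LPS value, so the groups overlapped across genotypes and separated only within them. The other was Il3, a growth factor of mast cells and basophils, with 30.1 and 31.4 FPKM with nicotine before LPS, against 0 and 0.301 FPKM with LPS alone (4.80 ± 0.22, adjusted p = 0.000891). A value of 0 can be a failed estimate, so no fold is given for it. Ifnb1, encoding interferon β, had 134 and 20.6 FPKM with nicotine before LPS, against 165 and 6.21 FPKM with LPS alone. It varied more between genotypes than between treatments and did not pass (0.64 ± 0.45, adjusted p = 0.271).

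Several of these calls rested on all 4 libraries. Cytokine falls numbered 15 without the knockout and 12 without the wild type library given nicotine before LPS, and 16 without the knockout and 13 without the wild type LPS library. Tnf and Il10 lost the call without any 1 of the 4 (adjusted p from 0.0923 to 0.261 for Tnf and from 0.109 to 0.625 for Il10). Il1b and Il6 lost it without the knockout LPS library (adjusted p = 0.0757 and 0.0747) or the wild type LPS library (adjusted p = 0.0719 and 0.0587). Csf2 lost it without the knockout (adjusted p = 0.0805) or the wild type library given nicotine (adjusted p = 0.157). Il27, Il12a, Csf3 and Il3 kept the call without each library.

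**Figure D2:**
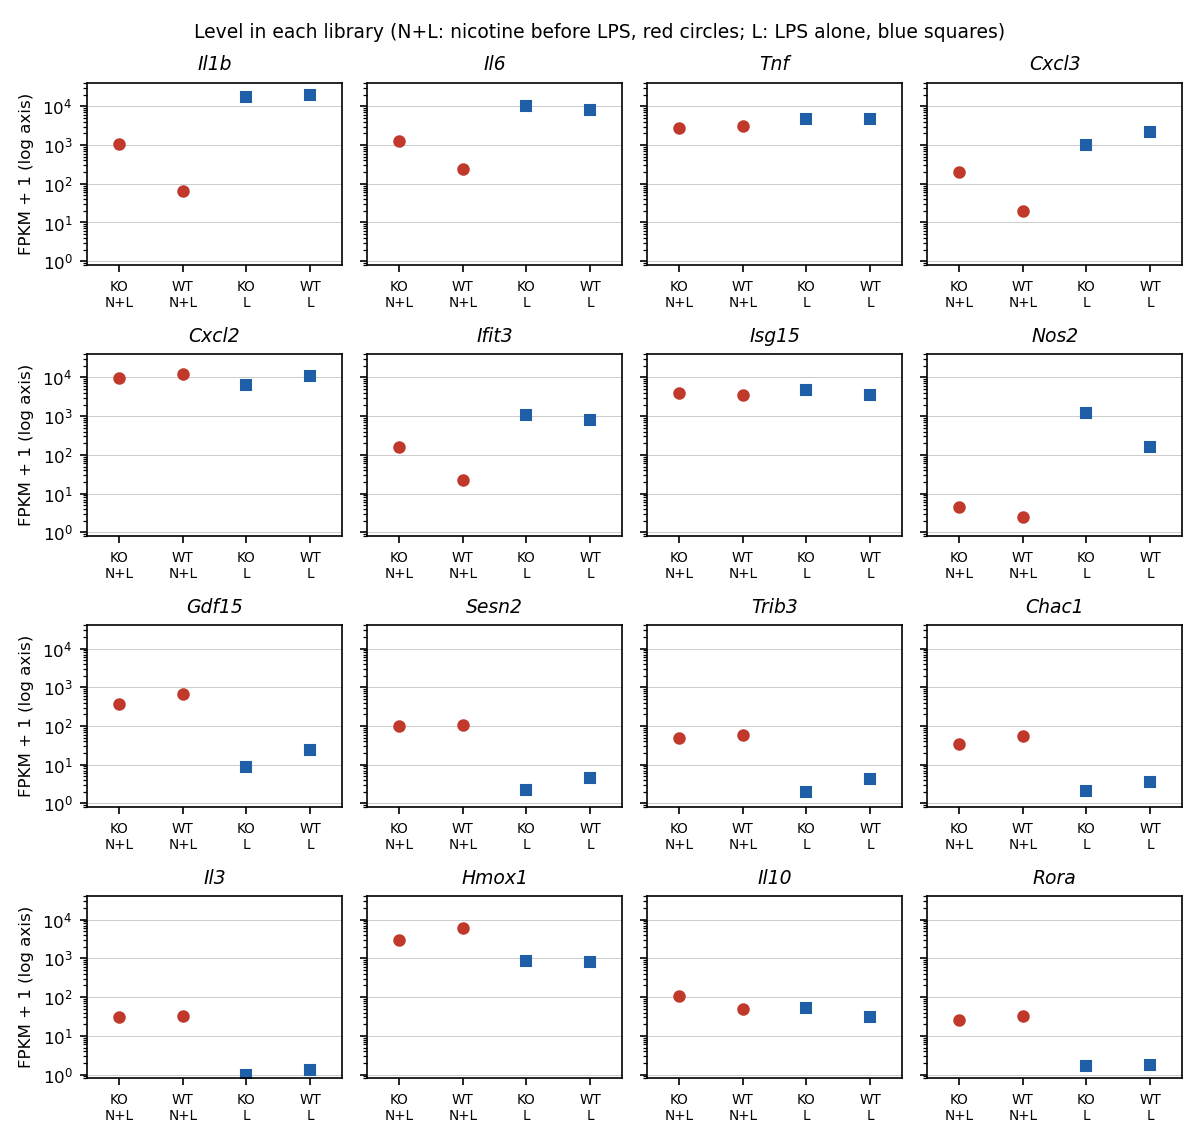
Level of 16 genes in each of the 4 libraries as FPKM + 1 on a log axis, with nicotine before LPS (N+L, red circles) left of LPS alone (L, blue squares) and the knockout library (KO) left of the wild type library (WT). Il1b, Il6, Cxcl3, Ifit3 and Nos2 lie lower with nicotine, Gdf15, Sesn2, Trib3, Chac1, Il3 and Rora higher, and Tnf, Cxcl2 and Isg15 stay high in all 4.

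Chemokines ranged from genes that fell by far to genes that did not pass. Of 23 tested, 16 fell and 0 rose, with a median of -1.77. Close neighbours on chromosome 5 differed, where 3 related attractants of neutrophils lie in 1 cluster (GRCm38, Cxcl3 at 90786103 to 90789600, Cxcl1 at 90891241 to 90893115 and Cxcl2 at 90903871 to 90905938, all on the plus strand). Cxcl3 had 205 and 19.2 FPKM with nicotine before LPS, against 990.1 and 2188 FPKM with LPS alone (-4.51 ± 1.01, adjusted p = 0.0164). Cxcl2 had 9874 and 12251 FPKM with nicotine before LPS, against 6526 and 11139.8 FPKM with LPS alone (0.37 ± 0.20, adjusted p = 0.168), and Cxcl1 3662 and 5238 FPKM with nicotine before LPS, against 2583 and 8755 FPKM with LPS alone (-0.12 ± 0.33, adjusted p = 0.774). In the wild type pair Cxcl3 stood over 10-fold apart, while Cxcl1 and Cxcl2 stayed at 2583 FPKM or more in all 4 libraries and did not pass. Cxcl3 lost its call without the wild type library given nicotine (adjusted p = 0.0534) or the knockout (adjusted p = 0.0768) or wild type LPS library (adjusted p = 0.113).

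The promoters of Cxcl3 and Cxcl2 are shown because these neighbours differ in response and hold the same element. In RefSeq's 300-base windows (GRCm38.p6, 250 bases before to 50 after the gene's start, 5′ to 3′ on the gene's strand), capitals mark the kappa B consensus, the motif that NF-kB binds. The windows are chr5:90785851-90786150 and chr5:90903649-90903948, both on the plus strand, and the element begins 73 and 97 bases before the start. It matched on both strands over nearly the same bases, counted as 2 overlapping matches in each.
Cxcl3: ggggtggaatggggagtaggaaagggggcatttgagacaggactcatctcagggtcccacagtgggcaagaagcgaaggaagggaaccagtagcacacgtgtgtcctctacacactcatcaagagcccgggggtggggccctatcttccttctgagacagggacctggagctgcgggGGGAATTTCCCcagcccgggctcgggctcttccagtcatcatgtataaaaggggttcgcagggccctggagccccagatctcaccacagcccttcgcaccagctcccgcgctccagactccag
Cxcl2: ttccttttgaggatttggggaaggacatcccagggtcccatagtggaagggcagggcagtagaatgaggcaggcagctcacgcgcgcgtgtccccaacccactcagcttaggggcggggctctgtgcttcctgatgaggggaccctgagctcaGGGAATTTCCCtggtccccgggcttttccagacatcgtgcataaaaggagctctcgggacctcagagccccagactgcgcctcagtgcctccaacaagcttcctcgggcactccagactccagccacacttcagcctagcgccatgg
The kappa B consensus, searched on both strands, was in 9.55% of all 27025 promoters in that table, in 5 of 15 chemokine promoters found there (33.3%; Ccl9, Cxcl1, Cxcl2, Cxcl3 and Cxcl10) and in 10 of 14 promoters of NF-kB subunits and inhibitors (71.4%). Among genes at least 2-fold lower in both genotypes it was in 15.3% of 871 promoters, and among those 2-fold higher in 12.2% of 699, beside 12.7% of 6187 promoters of genes tested.

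Other chemokines that fell include the T cell attractants Cxcl10 (861 and 509 FPKM with nicotine before LPS, against 10567 and 7244 FPKM with LPS alone, -3.72 ± 0.18, adjusted p = 0.000891) and Ccl5 (3286 and 2087 FPKM with nicotine before LPS, against 15078 and 13986 FPKM with LPS alone, -2.47 ± 0.21). Ccl2 and Ccl12, which attract monocytes, fell by 2.30 and 3.82 on the log2 scale. Ccl3 and Ccl4, attractants of many leukocytes, fell less (-1.94 and -1.36), and Ccl17, an attractant of T cells made by dendritic cells and macrophages, did not pass (-2.13 ± 0.72, adjusted p = 0.0542). Cxcl14, the highest of the list, had 10.3 and 19.1 FPKM with nicotine before LPS, against 4.86 and 17.3 FPKM with LPS alone (0.54 ± 0.24, adjusted p = 0.106). Chemokine falls numbered 11 without the knockout and 4 without the wild type library given nicotine before LPS, and 4 without the knockout and 9 without the wild type LPS library.

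Interferon-stimulated genes fell almost as a block, although Ifnb1 itself did not pass. Of 36 antiviral genes tested, 32 fell and 0 rose (median -2.49), and of 17 interferon-inducible GTPases 15 fell and 0 rose (median -2.54). Ifit3, an inhibitor of viral RNA translation, had 157 and 22.1 FPKM with nicotine before LPS, against 1096 and 797 FPKM with LPS alone (-3.95 ± 0.54, adjusted p = 0.00417). Mx1, an antiviral GTPase, had 139 and 19.5 FPKM with nicotine before LPS, against 899 and 571 FPKM with LPS alone (-3.74 ± 0.50), and Rsad2 (viperin) 948 and 364 FPKM with nicotine before LPS, against 5217 and 2321 FPKM with LPS alone (-2.57 ± 0.18). In Ifit3 and Mx1 the wild type library given nicotine was the lowest of the 4. Isg15, a ubiquitin-like protein and a classic member of the same set, was the exception, with 4043 and 3488 FPKM with nicotine before LPS, against 4675 and 3439 FPKM with LPS alone. Its groups overlapped (-0.09 ± 0.18, adjusted p = 0.679, and 0.81 with quantile scaling). Parp14, Rtp4 and Oas1b did not pass either (log2 changes -0.58, -0.72 and -0.59). Members of the Ifit, Oas and Gbp families are near copies of one another, so reads can be split among them.

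The promoters of Ifit3 and Isg15 are shown because both hold the core of the interferon-stimulated response element, which interferon-activated factors such as STAT2 and IRF9 bind, while 1 fell and the other did not pass. Capitals mark that core, GAAA and GAAA with 2 bases between them, on either strand, in the RefSeq windows chr19:34583279-34583578 on the plus strand, with the first match 156 bases before the start, and chr4:156200769-156201068 on the minus strand, with the first match 78 bases before it. Ifit3 has 2 separate matches and Isg15 has 3 that overlap in 1 run.
Ifit3: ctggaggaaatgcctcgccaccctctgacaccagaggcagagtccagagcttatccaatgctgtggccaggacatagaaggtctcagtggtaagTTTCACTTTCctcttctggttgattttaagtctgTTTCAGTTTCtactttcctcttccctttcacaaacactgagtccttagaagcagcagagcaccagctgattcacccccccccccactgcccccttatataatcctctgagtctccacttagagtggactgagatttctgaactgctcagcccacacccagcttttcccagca
Isg15: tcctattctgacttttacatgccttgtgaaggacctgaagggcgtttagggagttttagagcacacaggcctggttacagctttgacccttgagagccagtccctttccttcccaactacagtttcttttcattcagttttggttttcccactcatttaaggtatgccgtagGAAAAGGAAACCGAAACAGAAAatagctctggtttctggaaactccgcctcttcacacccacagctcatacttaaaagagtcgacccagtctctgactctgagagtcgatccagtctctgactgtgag
This core was in 16 of 26 antiviral gene promoters (61.5%) and 9 of 10 GTPase promoters (90.0%), against 3.99% of all 27025. It was in 10.7% of 871 promoters of genes 2-fold lower in both genotypes and in 3.86% of 699 promoters of genes 2-fold higher, beside 4.44% of 6187 promoters of genes tested. A match is a stretch of letters and shows no binding.

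Among the GTPases, Iigp1 fell most (60.3 and 5.74 FPKM with nicotine before LPS, against 1022 and 316 FPKM with LPS alone). Irgm1, which helps clear bacteria by autophagy, lay highest and did not pass (629 and 200.1 FPKM with nicotine before LPS, against 700.0 and 511 FPKM with LPS alone, -0.75 ± 0.32, adjusted p = 0.1). Gbp5, which promotes inflammasome assembly, fell by 3.29 and Gbp9 by 3.31 on the log2 scale. Of 17 genes of interferon signalling 14 fell and 0 rose, with a median of -1.63. They include the transcription factors Irf7 (195 and 45.4 FPKM with nicotine before LPS, against 1388 and 909 FPKM with LPS alone, -3.56 ± 0.37), Stat2 (-1.59 ± 0.32) and Irf5 (-2.52 ± 0.18), and the feedback inhibitor Socs1 (-2.83 ± 0.19). Jak2, a kinase of cytokine receptors, had 66.5 and 62.4 FPKM with nicotine before LPS, against 359 and 441 FPKM with LPS alone (-2.61 ± 0.19, adjusted p = 0.00121), and all 4 libraries of it separated by treatment. Jak1 (0.40 ± 0.17, adjusted p = 0.104) and the receptor chain Ifngr1 (0.56 ± 0.23, adjusted p = 0.088) did not pass. Falls of antiviral genes numbered 33 without the knockout and 10 without the wild type library given nicotine before LPS, and 4 without the knockout and 10 without the wild type LPS library. For the GTPases these counts were 15, 2, 1 and 1 in the same order, and for interferon signalling 12, 3, 4 and 6.

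The receptor complex for LPS changed in its parts in opposite directions. Counts of its list, given below, stand beside 28.9% of all genes tested that fell and 26.0% that rose. Tlr4 had 10.5 and 6.54 FPKM with nicotine before LPS, against 26.3 and 27.6 FPKM with LPS alone (-1.58 ± 0.21), and its co-receptor Cd14 1208 and 1348 FPKM with nicotine before LPS, against 2884 and 3726 FPKM with LPS alone (-1.36 ± 0.18). Ly96, which encodes MD-2, the LPS-binding partner of TLR4, rose (134 and 202 FPKM with nicotine before LPS, against 47.9 and 38.2 FPKM with LPS alone, 1.92 ± 0.26, adjusted p = 0.00412). The adaptors divided likewise. Myd88 and Tirap, of the branch that leads to NF-kB, fell (-1.81 ± 0.18 and -2.31 ± 0.21), while Ticam1 and Ticam2, of the branch that leads to interferon β, rose (0.87 ± 0.21 and 1.33 ± 0.24). Ikbke, a kinase of that interferon branch, fell most (-3.13 ± 0.16), together with the inhibitor Irak3 (-2.78 ± 0.20), and Traf6, a ubiquitin ligase downstream of the adaptors, rose (1.13 ± 0.16). Of the 19 genes tested 9 fell and 6 rose, and the rises and falls were 3 and 6 without the knockout and 0 and 4 without the wild type library given nicotine before LPS. Without the knockout and wild type LPS libraries they were 2 and 5, and 2 and 6. Tlr4 and Ly96 lost the call without the wild type library given nicotine (adjusted p = 0.0546 and 0.0516).

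Of 18 NF-kB subunits and inhibitors 10 fell and 0 rose (median -0.82). Inhibitors that NF-kB itself induces were among the falls, Tnip1 by 2.01, Nfkbie by 1.86, Tnfaip3 (A20) by 1.18 and Nfkbia by 1.01 on the log2 scale. Nfkb2 fell (-1.28 ± 0.18), whereas Rel and Nfkbib did not pass (0.33 and 0.56). Without the wild type library given nicotine 1 of these falls was called, 7 without the knockout one, and 4 without either LPS library. Feedback genes that destroy mRNA or switch off MAP kinases went both ways, 8 of 16 down and 4 up. Of all genes tested 28.9% fell and 26.0% rose, so the share of rises in this list was near that of all genes. Socs3, an inhibitor of cytokine receptors, had 95.0 and 66.9 FPKM with nicotine before LPS, against 946 and 1073 FPKM with LPS alone (-3.64 ± 0.23), and the MAP kinase phosphatase Dusp16 15.4 and 13.3 FPKM with nicotine before LPS, against 125 and 105 FPKM with LPS alone (-2.92 ± 0.16). Zfp36l2, a protein that speeds mRNA decay, was the highest, with 90.5 and 111 FPKM with nicotine before LPS, against 8.66 and 14.4 FPKM with LPS alone (3.05 ± 0.18), while its relative Zfp36 (tristetraprolin) fell slightly (-0.69 ± 0.19), a call that ended with quantile scaling (adjusted p = 0.177). Atf3, a repressor of inflammatory genes, rose (1.01 ± 0.32). Falls of these feedback genes numbered 5, 4, 5 and 4 without the knockout or wild type library given nicotine or the knockout or wild type LPS library, and rises 1, 1, 1 and 2.

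Enzymes that carry out macrophage functions mostly fell, 14 of 22, with 3 higher and a median of -2.08. The prostaglandin pathway fell in both of its inducible steps. Ptgs2, the inducible cyclooxygenase, had 1312 and 522 FPKM with nicotine before LPS, against 3555 and 3572 FPKM with LPS alone (-2.10 ± 0.34), and Ptges, the synthase of prostaglandin E2, 80.3 and 39.2 FPKM with nicotine before LPS, against 775 and 719 FPKM with LPS alone (-3.71 ± 0.27). Irg1, which makes itaconate, had 539 and 726 FPKM with nicotine before LPS, against 4367 and 4733 FPKM with LPS alone (-2.86 ± 0.19). Plau, the urokinase that activates plasminogen, rose. It had 109 and 155 FPKM with nicotine before LPS, against 8.93 and 12.9 FPKM with LPS alone (3.48 ± 0.16). Arginase 2 (Arg2) and ornithine decarboxylase (Odc1), which take arginine towards polyamines, rose (1.39 ± 0.20 and 1.25 ± 0.20), while Nos2, which uses the same substrate, fell. Arginase 1 (Arg1) did not move with Arg2. It was lower with nicotine in knockout and higher in wild type cells (45.2 and 14.2 FPKM with nicotine before LPS, against 95.4 and 9.04 FPKM with LPS alone).

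Of 16 genes of inflammasomes and cell death 11 fell and 3 rose (median -1.27). Mlkl, which perforates the membrane in necroptosis, fell most (23.9 and 6.01 FPKM with nicotine before LPS, against 205 and 125 FPKM with LPS alone, -3.61 ± 0.30). Its upstream kinases Ripk3 (1.87 ± 0.22) and Ripk1 (1.11 ± 0.17) rose, and Casp8, which restrains them, fell (-2.93 ± 0.17). Nlrp3, the sensor whose inflammasome matures interleukin 1β, fell by 0.95 on the log2 scale, and Mefv (pyrin) by 3.49. Of 30 myeloid surface receptors 19 fell and 3 rose (median -1.36). Gpr84, the formyl peptide receptors Fpr1 and Fpr2 and the IgG receptor Fcgr1 lay lowest, with Fpr1 at 103 and 21.9 FPKM with nicotine before LPS, against 1420.3 and 1120.2 FPKM with LPS alone (-4.69 ± 0.44). Cxcr4, the receptor that holds cells in the marrow, lay at the other end, with 119.8 and 280.2 FPKM with nicotine before LPS, against 7.89 and 4.81 FPKM with LPS alone (4.68 ± 0.44, adjusted p = 0.00176). Cd36, a scavenger receptor, and Ccrl2, a chemerin-binding receptor, were the other risers (0.85 and 0.85).

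Falls of effector enzymes numbered 14, 8, 10 and 10 without the knockout or wild type library given nicotine or the knockout or wild type LPS library. In the same order those of inflammasome and cell death genes numbered 8, 5, 5 and 8, and those of surface receptors 15, 8, 9 and 12.

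Amino acid stress genes rose. Of 27 genes linked to ATF4, 20 rose and 2 fell, with a median of 1.96, beside a median of -0.06 over all genes tested. Gdf15, a stress-induced hormone that suppresses appetite, had 367 and 679.9 FPKM with nicotine before LPS, against 7.95 and 23.5 FPKM with LPS alone (5.08 ± 0.21, adjusted p = 0.000891). Sesn2, which reports low leucine to mTORC1, had 98.3 and 107 FPKM with nicotine before LPS, against 1.17 and 3.42 FPKM with LPS alone (5.06 ± 0.25). In both genes the lowest nicotine library lay over 10-fold above the highest LPS library. Atf4 itself had 1072 and 1179 FPKM with nicotine before LPS, against 192 and 287 FPKM with LPS alone (2.26 ± 0.20), and its partner Ddit3 (CHOP) 81.3 and 92.8 FPKM with nicotine before LPS, against 13.0 and 14.6 FPKM with LPS alone (2.57 ± 0.16).

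The promoters of Trib3, a pseudokinase that restrains ATF4, and Chac1, an enzyme that breaks down glutathione, are shown because these genes rose together and both hold the composite element for ATF4 and C/EBP. Capitals mark TGATGNAA on either strand, in the RefSeq windows chr2:152344011-152344310 on the minus strand, where it begins 15 bases after the start, and chr2:119350992-119351291 on the plus strand, where it begins 193 bases before the start.
Trib3: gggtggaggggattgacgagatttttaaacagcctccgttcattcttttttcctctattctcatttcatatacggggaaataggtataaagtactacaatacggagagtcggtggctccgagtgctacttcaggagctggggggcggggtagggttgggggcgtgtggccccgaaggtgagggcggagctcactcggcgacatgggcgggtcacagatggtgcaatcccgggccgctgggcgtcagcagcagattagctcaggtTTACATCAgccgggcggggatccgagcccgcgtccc
Chac1: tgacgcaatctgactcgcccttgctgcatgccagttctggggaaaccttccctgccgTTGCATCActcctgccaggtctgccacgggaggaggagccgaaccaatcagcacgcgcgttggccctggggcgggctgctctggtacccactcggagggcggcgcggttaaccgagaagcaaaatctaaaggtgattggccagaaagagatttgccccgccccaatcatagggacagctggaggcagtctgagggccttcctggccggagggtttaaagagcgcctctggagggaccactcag
The element was in 6 of 25 promoters of the list (24.0%) and in 5 of 12 promoters of tRNA synthetases (41.7%), against 4.51% of all 27025. It was in 3.43% of 699 promoters of genes 2-fold higher in both genotypes and in 3.67% of 871 promoters of genes 2-fold lower, beside 2.89% of 6187 promoters of genes tested. Trib3 had 47.5 and 55.9 FPKM with nicotine before LPS, against 0.937 and 3.31 FPKM with LPS alone (4.18 ± 0.26), and Chac1 33.4 and 53.7 FPKM with nicotine before LPS, against 1.06 and 2.52 FPKM with LPS alone (4.01 ± 0.16).

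Supply genes downstream of ATF4 rose with them. The amino acid transporter Slc38a2 had 321 and 454 FPKM with nicotine before LPS, against 23.7 and 30.3 FPKM with LPS alone (3.78 ± 0.18), and asparagine synthetase, Asns, 112 and 117 FPKM with nicotine before LPS, against 6.70 and 19.5 FPKM with LPS alone (3.20 ± 0.34). Ppp1r15a, the phosphatase subunit that restarts translation, had 356 and 428 FPKM with nicotine before LPS, against 25.0 and 33.7 FPKM with LPS alone (3.70 ± 0.18). All these genes separated by treatment in both genotypes. The cystine transporter Slc7a11 was high in all 4 libraries (757 and 875 FPKM with nicotine before LPS, against 664 and 689 FPKM with LPS alone) and did not pass, nor did the serine pathway enzymes Psat1 and Shmt2 (0.60 and 0.52). Nupr1 and Cebpb were the 2 that fell (-0.92 ± 0.19 and -0.92 ± 0.18). Impact, which blocks the amino acid sensor GCN2, rose by 4.66 on the log2 scale, to 112 and 178 FPKM with nicotine before LPS, against 3.77 and 5.68 FPKM with LPS alone. Rises of the list numbered 15 without the knockout and 11 without the wild type library given nicotine before LPS, and 15 without the knockout and 18 without the wild type LPS library.

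Among 20 tRNA synthetases, which load amino acids onto tRNA, 9 rose and 4 fell (median 0.43), beside 26.0% and 28.9% of all genes tested. Nars (296 and 348 FPKM with nicotine before LPS, against 53.4 and 80.0 FPKM with LPS alone, 2.28 ± 0.19), Aars (1.85 ± 0.17) and Yars (1.66 ± 0.20) rose most. Wars, the synthetase that interferon γ induces, fell most (20.1 and 13.4 FPKM with nicotine before LPS, against 115 and 59.3 FPKM with LPS alone, -2.26 ± 0.18), with Dars, Kars and Farsa (-1.43, -1.27 and -1.18). Synthetase rises numbered 3, 1, 2 and 6 and falls 3, 0, 4 and 3 without the knockout or wild type library given nicotine or the knockout or wild type LPS library. Chaperones of the endoplasmic reticulum had 4 up and 5 down of 20, shares below the 26.0% and 28.9% of all genes tested. Dnajb9 (2.63 ± 0.17) and Herpud1 (1.74 ± 0.19), which serve the removal of misfolded proteins, rose more than Hspa5 (BiP, 0.61 ± 0.18), while Xbp1 (-0.63 ± 0.19) and the disulfide isomerase Pdia4 (30.3 and 12.8 FPKM with nicotine before LPS, against 60.7 and 27.1 FPKM with LPS alone) fell. The median of the list was -0.19, and 0.02 with quantile scaling, where 5 rose, 2 fell and Xbp1 was no longer called (adjusted p = 0.112). Of the chaperones 1 or 2 rose and 0 fell with 1 library left out.

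Of 15 heat shock genes 8 rose and 1 fell (median 0.60). Dnajb4 (29.7 and 51.2 FPKM with nicotine before LPS, against 9.74 and 12.7 FPKM with LPS alone, 1.72 ± 0.18), Hsph1 (1.61 ± 0.19) and Hsp90aa1 (1.58 ± 0.19) led, and Hspa4l fell (-0.76 ± 0.18). Hspa1b, which shares reads with its near copy Hspa1a, rose by 0.74 in knockout and 1.97 in wild type cells. Genes of NRF2, the factor that answers oxidants, gave 6 up and 4 down of 22 (median 0.14), a share of rises near the 26.0% of all genes tested and a share of falls below their 28.9%. Osgin1 (3.04 ± 0.15), Sqstm1 (p62, 1.89 ± 0.18) and Gclc, the first enzyme of glutathione synthesis (1.88 ± 0.17), rose. Keap1, the inhibitor of NRF2, fell (-1.36 ± 0.19), as did the exporter Abcc1 (-1.35 ± 0.24) and G6pdx, which supplies NADPH (-1.25 ± 0.16). Rises of heat shock genes numbered 5, 0, 1 and 3 without the knockout or wild type library given nicotine or the knockout or wild type LPS library, and those of NRF2 genes 3, 1, 2 and 3, with 3, 0, 0 and 1 falls.

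Hmox1, the enzyme that degrades haem, rose. It had 2916 and 6179.7 FPKM with nicotine before LPS, against 872 and 796 FPKM with LPS alone (2.35 ± 0.32, adjusted p = 0.00417), with the wild type nicotine library highest. The chains of the iron store ferritin moved apart, Ftl1 up (15749.9 and 28682 FPKM with nicotine before LPS, against 7670.1 and 9699 FPKM with LPS alone, 1.30 ± 0.20) and Fth1 down (19262 and 18325 FPKM with nicotine before LPS, against 31798 and 31621 FPKM with LPS alone, -0.76 ± 0.16). With quantile scaling the call of Fth1 ended (adjusted p = 0.327), and reads of pseudogenes can mix with both. The transferrin receptor Tfrc rose (1.79 ± 0.16), and Lcn2, which withholds iron from bacteria, fell (36.5 and 0.130 FPKM with nicotine before LPS, against 246 and 59.2 FPKM with LPS alone, -4.23 ± 0.69). Counts of the haem and iron list stand beside 26.0% of all genes tested that rose and 28.9% that fell. Among 13 genes of haem and iron 5 rose and 5 fell, and with 1 library left out 1 to 3 rose and 0 to 5 fell. Hmox1 lost the call without either LPS library (adjusted p = 0.0593 without the knockout and 0.06 without the wild type one). Lcn2 lost it without the wild type library given nicotine (adjusted p = 0.248), the knockout LPS library (adjusted p = 0.318) or the wild type LPS library (adjusted p = 0.138).

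**Figure D3:**
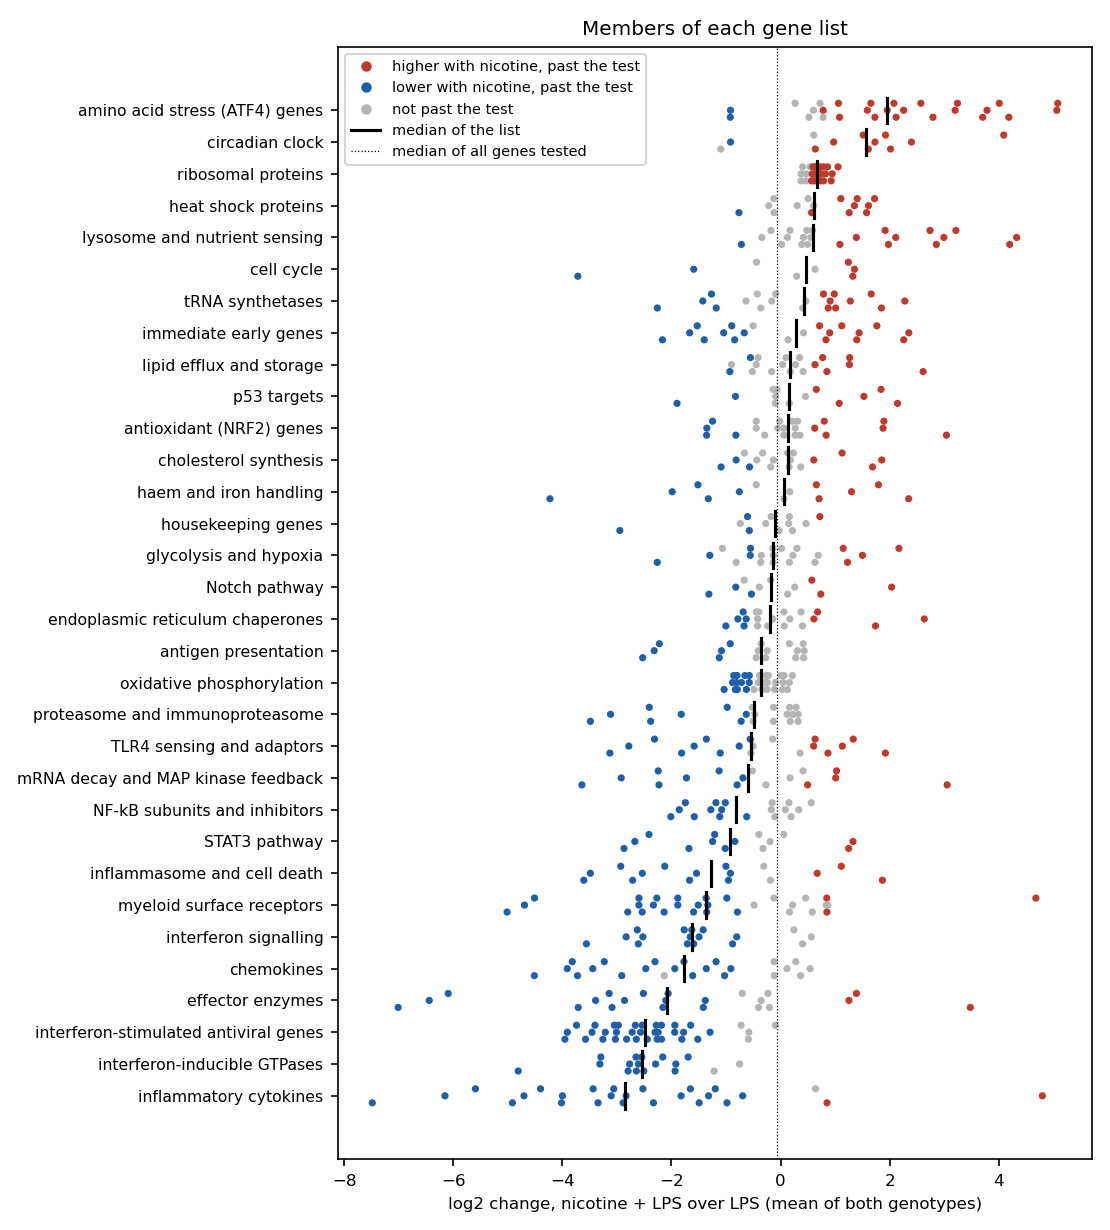
Each point is a gene, placed by its log2 change (x axis, nicotine before LPS over LPS alone, mean of both genotypes) in the row of its list; red and blue points passed the test, bars mark list medians and the dotted line the median of all genes tested (-0.06). Inflammatory cytokines (-2.86) and interferon-inducible GTPases (-2.54) lie at the bottom and amino acid stress genes (1.96) and the circadian clock (1.56) at the top.

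Genes that tie lysosomes to nutrient sensing rose in 11 of 23 and fell in 1 (median 0.59). The median was 0.17 in knockout and 1.11 in wild type pairs, with 21 of 23 changes larger in wild type. Folliculin, Flcn, which acts on the Rag GTPases that carry amino acid signals to mTORC1, had 73.0 and 116 FPKM with nicotine before LPS, against 3.55 and 3.71 FPKM with LPS alone (4.33 ± 0.20). Its partners Fnip1 (2.99 ± 0.17) and Fnip2 (4.20 ± 0.30) and the Rag GTPases Rragc (2.11 ± 0.27) and Rragd (2.74 ± 0.34) rose with it, as did the lysosomal enzyme Gla (3.21 ± 0.30) and the proton pump subunit Atp6v0d2 (2.86 ± 0.33). Mitf, a transcription factor of lysosomal genes, fell (-0.72 ± 0.16). The rises numbered 10, 6, 9 and 8 without the knockout or wild type library given nicotine or the knockout or wild type LPS library.

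The core clock genes rose in 9 of 12, with 1 lower and a median of 1.56. Rora, a nuclear receptor that drives the clock, had 24.8 and 31.5 FPKM with nicotine before LPS, against 0.644 and 0.755 FPKM with LPS alone (4.09 ± 0.20). Arntl (BMAL1, 1.73 ± 0.17), the repressor Cry1 (2.40 ± 0.22) and Nr1d2 (2.02 ± 0.16) rose too, both activators and repressors of the loop. Nfil3 fell (-0.92 ± 0.25), a call that ended with quantile scaling (adjusted p = 0.0674), and Nr1d1 had 2.03 and 5.10 FPKM with nicotine before LPS, against 3.03 and 19.9 FPKM with LPS alone and did not pass (adjusted p = 0.0518). The rises numbered 5, 3, 5 and 8 with 1 library left out, in the order just used.

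Metabolic lists moved less, and their counts stand beside 26.0% of all genes tested that rose and 28.9% that fell. Of 17 cholesterol synthesis genes 4 rose and 3 fell. Insig1, a brake on sterol synthesis, and Dhcr7, an enzyme of its last steps, rose (1.69 ± 0.23 and 1.86 ± 0.34), and Fdps, a prenyl synthase, fell (-0.81 ± 0.22). Of 19 lipid genes 6 rose and 2 fell, among them the desaturase Scd2 (2.61 ± 0.29), the acid lipase Lipa (1.26 ± 0.19) and the fatty acid sensor Ppard (1.27 ± 0.16) upwards and Apoc2 downwards (-0.93 ± 0.26). Of 21 genes of glycolysis and hypoxia 4 rose and 4 fell. Vegfa, a vessel growth factor, rose (114 and 129 FPKM with nicotine before LPS, against 28.0 and 24.5 FPKM with LPS alone, 2.17 ± 0.18), and Pfkfb3, which speeds glycolysis, fell (24.1 and 19.5 FPKM with nicotine before LPS, against 131 and 88.2 FPKM with LPS alone, -2.26 ± 0.17). The medians of the cholesterol and the glycolysis list were 0.13 and -0.13, and that of the glycolysis list was 0.19 with quantile scaling. With 1 library left out the rises and falls numbered 0 to 3 and 0 to 2 among cholesterol genes, 1 to 3 and 0 to 1 among lipid genes, and 1 to 3 and 1 to 3 among glycolysis genes.

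Ribosomal protein genes moved up in small steps, while proteasome genes fell or did not pass, with large falls in immunoproteasome subunits. Counts of these lists stand beside 26.0% of all genes tested that rose and 28.9% that fell. Ribosomal protein genes rose in 24 of 30 and fell in 0, from 0.37 (Rpl3, which did not pass) to 1.05 (Rplp0), with a median of 0.67. Of 20 proteasome genes 8 fell and 0 rose, and among the lowest were the immunoproteasome subunits that interferon induces, Psmb9 (41.5 and 7.56 FPKM with nicotine before LPS, against 259 and 175 FPKM with LPS alone, -3.49 ± 0.42), Psmb10 (-3.12 ± 0.31) and Psmb8 (-2.38 ± 0.39). The constitutive subunit Psma1 lay highest (0.32 ± 0.18) and did not pass. Oxidative phosphorylation genes fell in 12 of 30 and rose in 0 (median -0.37), from Ndufa9 (-1.03 ± 0.16) to Ndufb5 (0.22 ± 0.16), which did not pass. With quantile scaling 28 ribosomal genes rose and 7 of 30 respiratory genes fell. The latter share is below those 28.9%, so the respiratory fall is not shown to be particular to its list. With 1 library left out the ribosomal rises numbered 0 to 2, the respiratory falls 0 to 1 and the proteasome falls 0 to 6.

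Of 17 genes of antigen presentation 6 fell and 0 rose, beside 28.9% and 26.0% of all genes tested. With quantile scaling 5 rose and 5 fell. The peptide transporter Tap2 (60.1 and 19.2 FPKM with nicotine before LPS, against 223 and 182 FPKM with LPS alone, -2.53 ± 0.33), Tap1 (-2.32 ± 0.37) and the class I activator Nlrc5 (-2.22 ± 0.22) fell, while the class II genes H2-Aa and Cd74 did not pass (0.43 and 0.42). Psmb9, Tap1, Psmb8 and Tap2 are neighbours on chromosome 17, and all 4 were lowest in the wild type library given nicotine. Falls of the list numbered 6, 2, 1 and 1 without the knockout or wild type library given nicotine or the knockout or wild type LPS library, with 0 rises each time.

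For the Notch pathway, 3 of 11 genes rose and 3 fell, with a median of -0.18 (0.01 with quantile scaling). These shares lay near the 26.0% and 28.9% of all genes tested that rose and fell. Hes1, the target through which Notch represses transcription, had 5.87 and 11.8 FPKM with nicotine before LPS, against 1.01 and 1.62 FPKM with LPS alone (2.04 ± 0.27, adjusted p = 0.00383). The ligand Jag1 fell (12.1 and 18.6 FPKM with nicotine before LPS, against 24.8 and 60.6 FPKM with LPS alone, -1.31 ± 0.21), and Notch1 fell slightly (-0.53 ± 0.16), a call that ended with quantile scaling (adjusted p = 0.0547). For the STAT3 pathway, 8 of 14 fell and 2 rose (median -0.93). Stat3 had 90.4 and 51.1 FPKM with nicotine before LPS, against 209.6 and 119.6 FPKM with LPS alone (-1.21 ± 0.17, adjusted p = 0.00457), and its knockout nicotine value lay under the wild type LPS value. The receptor Il10ra (-2.67 ± 0.17), the feedback inhibitor Cish (-2.87 ± 0.45) and the kinase Pim1 (-1.68 ± 0.19) fell, and the interleukin 6 receptor chains Il6st (1.33 ± 0.15) and Il6ra (1.25 ± 0.22) rose. Hes1 lost the call without the wild type library given nicotine (adjusted p = 0.08) or the knockout LPS library (adjusted p = 0.0606), and Stat3 without any 1 of the 4 (adjusted p from 0.062 to 0.259). With 1 library left out 0 or 1 Notch gene rose and 0 or 1 fell, while 2 to 5 STAT3 genes fell and 0 or 1 rose.

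Immediate early genes went both ways, 9 up and 8 down of 20, where 26.0% of all genes tested rose and 28.9% fell. Maff (2.35 ± 0.17), Klf4 (2.26 ± 0.29) and Fosl1 (1.76 ± 0.18) rose, and Ier2 (-2.17 ± 0.17), Fosl2 (-1.67 ± 0.20) and Myc (-1.40 ± 0.18) fell. Rises of the list numbered 4, 2, 3 and 5 and falls 4, 1, 5 and 5 without the knockout or wild type library given nicotine or the knockout or wild type LPS library. Among 13 targets of p53, 5 rose and 2 fell, beside 26.0% and 28.9% of all genes tested. The kinase Plk2 (2.14 ± 0.20) and the death gene Pmaip1 (1.84 ± 0.17) lay highest and the death receptor Fas lowest (-1.90 ± 0.16). The p53 target Cdkn1a (p21) fell (-0.83 ± 0.18), a call that ended with quantile scaling (adjusted p = 0.0549). Of 8 cell cycle genes Ccnd2, a cyclin of early division, fell most (28.0 and 10.4 FPKM with nicotine before LPS, against 282 and 201 FPKM with LPS alone, -3.72 ± 0.25), Mki67 fell too (-1.59 ± 0.24), and Mcm3, E2f1 and Pcna rose (1.35, 1.32 and 1.24). With 1 library left out 1 to 3 targets of p53 rose and 1 fell, and 0 to 2 cell cycle genes rose and 1 or 2 fell.

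Among the 15 largest rises was also the serotonin receptor Htr2a (19.3 and 28.7 FPKM with nicotine before LPS, against 0.450 and 0.688 FPKM with LPS alone, 3.97 ± 0.21). Others were Samd11 (5.02 ± 0.22), Vasn, which binds TGF-β (4.04 ± 0.28), and Eif3j1, a subunit of initiation factor eIF3 (4.40 ± 0.23). Eif3j1 was listed at 22.7 and 22.3 FPKM with nicotine before LPS, and at 0.108 FPKM in each of the other 6 libraries. It has a near copy, Eif3j2, so its reads may be split between them.

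Among genes that every cell uses, Actb, the β-actin gene, fell (537 and 425 FPKM with nicotine before LPS, against 4726 and 2879 FPKM with LPS alone, -2.95 ± 0.20), and Eef1a1, the elongation factor, rose (5395 and 6998 FPKM with nicotine before LPS, against 3538 and 3935 FPKM with LPS alone, 0.72 ± 0.18). Tbp and Hprt did not pass (0.15 and -0.17). Of 14 markers of resident peritoneal macrophages 4 fell and 1 rose, beside 28.9% and 26.0% of all genes tested. Their median was -0.12, and with quantile scaling 3 fell and 3 rose, with a median of 0.05. Gata6, the transcription factor that gives these cells their identity, fell (0.814 and 2.45 FPKM with nicotine before LPS, against 4.84 and 13.8 FPKM with LPS alone, -1.89 ± 0.25), as did Timd4, a receptor for dying cells (-1.59 ± 0.21), and Cd93 rose (1.47 ± 0.29). Of these markers 0 or 1 fell and 0 or 1 rose with 1 library left out. In such bulk RNA, fewer cells of a type and less RNA per cell cannot be told apart.

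Markers of other cells in the cavity moved with the treatment as well. Mast cell markers summed to 640 and 822 FPKM with nicotine before LPS, against 406 and 475 FPKM with LPS alone. Of 8 tested 5 rose, among them the proteases Cpa3 (1.59 ± 0.17), Tpsb2 (1.47 ± 0.17) and Mcpt4 (1.43 ± 0.17), and 2 fell, with Hdc, the enzyme that makes histamine, lowest (-1.63 ± 0.17). Their rises numbered 4, 0, 1 and 5 without the knockout or wild type library given nicotine or the knockout or wild type LPS library, and 1 fell each time. B cell markers summed to 403 and 341 FPKM with nicotine before LPS, against 281 and 218 FPKM with LPS alone. Of 7 tested 4 rose, Ebf1 (2.06 ± 0.19), Blk (2.01 ± 0.16), Cd79b (0.98 ± 0.21) and Cd79a (0.83 ± 0.17), and 2 or 3 rose with 1 library left out. Pax5 did not pass (-0.19), while Ms4a1 (CD20) stood at 71.7 and 61.6 FPKM with nicotine before LPS, against 73.2 and 63.1 FPKM with LPS alone. Neutrophil markers summed to 105 and 77.9 FPKM with nicotine before LPS, against 262 and 186 FPKM with LPS alone, with Elane, Retnlg and Cxcr2 at 0 in all 4 and the 3 tested, S100a8, Csf3r and Camp, all lower (-1.06, -1.77 and -2.20), of which 0 to 2 passed with 1 library left out. Dendritic cell markers summed to 105 and 109 FPKM with nicotine before LPS, against 76.3 and 57.6 FPKM with LPS alone. Of 3 tested, Xcr1 rose (18.4 and 27.3 FPKM with nicotine before LPS, against 1.31 and 1.14 FPKM with LPS alone, 3.40 ± 0.23), and Itgax (CD11c) and Cd209a did not pass (0.32 and 0.67). The T and NK cell, eosinophil and mesothelial lists summed to at most 19.2 FPKM in any of the 4 libraries. Il3 acts on and is made by mast cells, and the part of these cells in its rise, or of any other cell in any result here, was not tested.

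The effect of nicotine under LPS was then set against its effect without LPS, in a fit of all 8 libraries (8812 genes, 3 residual degrees of freedom). The difference between the effects passed in 2740 genes (31.1%), 1738 with a lower effect under LPS (19.7%) and 1002 with a higher one (11.4%). Cytokines had 18 of 26 members with a lower effect under LPS and 1 with a higher one, and antiviral genes 18 of 36 and 0, while ribosomal proteins had 0 of 30 either way. Members near 0 without LPS, such as Il23a (at most 0.0507 FPKM) and Il12b (at most 0.303 FPKM), could hardly fall there. For such genes a fall under LPS by itself gives a lower effect, so these counts do not show that the action of nicotine depends on LPS. For Il6 the effects differed by -5.12 ± 0.78 on the log2 scale (limma adjusted p = 0.00805). Nicotine without LPS gave 6.33 and 4.16 FPKM of it, against 5.31 and 0.264 FPKM with vehicle. Without LPS it was thus low in all 4 libraries.

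Several genes that LPS induces were higher with nicotine than with vehicle in cells without LPS, but fell or did not pass with nicotine before LPS. Cxcl2 had 309.5 and 511 FPKM with nicotine and no LPS, against 43.2 and 10.3 FPKM with vehicle, and its effects differed by -3.79 ± 0.91 (adjusted p = 0.0247). Il1a had 192 and 66.1 FPKM with nicotine and no LPS, against 39.9 and 3.49 FPKM with vehicle, but 1830.3 and 771 FPKM with nicotine before LPS, against 9202 and 11377 FPKM with LPS alone (-6.18 ± 0.99, adjusted p = 0.00899). Osm, a cytokine of the interleukin 6 family, had 69.4 and 123 FPKM with nicotine and no LPS, against 3.90 and 7.58 FPKM with vehicle, and 49.0 and 94.8 FPKM with nicotine before LPS, against 124 and 478 FPKM with LPS alone (-5.67 ± 0.41, adjusted p = 0.00324). In Il1a and Osm the sign of the change depended on whether LPS followed. Pfkfb3 (-3.87 ± 0.40), Dusp16 (-4.19 ± 0.25), Pim1 (-3.87 ± 0.49) and, among mast cell markers, Hdc (-4.51 ± 0.26) showed the same pattern. Cxcl1 (-3.25 ± 0.69), Slc7a11 (-4.14 ± 0.95) and the phosphatase Dusp1 (-3.36 ± 0.49) had the pattern of Cxcl2.

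In other genes the effect of nicotine was higher under LPS. Cxcr4 had 228 and 379 FPKM with nicotine and no LPS, against 53.5 and 225 FPKM with vehicle, beside 119.8 and 280.2 FPKM with nicotine before LPS and 7.89 and 4.81 FPKM with LPS alone (3.27 ± 0.78, adjusted p = 0.025). Zfp36l2 had 84.7 and 88.6 FPKM with nicotine and no LPS, against 63.6 and 88.2 FPKM with vehicle, so that the LPS libraries (8.66 and 14.4 FPKM) stood apart from the other 6 (2.85 ± 0.25, adjusted p = 0.00403). Sesn1, a stress-induced relative of Sesn2, had 8.10 and 10.5 FPKM with nicotine and no LPS, against 37.7 and 57.5 FPKM with vehicle, and 7.41 and 8.51 FPKM with nicotine before LPS, against 1.24 and 1.31 FPKM with LPS alone (4.20 ± 0.24, adjusted p = 0.002). The 4 nicotine libraries thus stood at 7.41 to 10.5 FPKM of Sesn1, with vehicle above and LPS alone below. Klf2, a factor that quiets macrophages (2.59 ± 0.24), Dhcr7 (2.63 ± 0.28) and Scd2 (3.06 ± 0.27) also had higher effects under LPS. In 25 of 27 amino acid stress genes the mean changes had the same sign with and without LPS, Cebpb and Nupr1 being the exceptions. The share with the same sign was not computed over all genes tested, so the count is not shown to be particular to this list. The effect was lower under LPS in 9 of 27 and higher in 1. Gdf15 (-1.45 ± 0.42) and Trib3 (-1.37 ± 0.40) were among the 9, and Chac1 (-0.51 ± 0.43, adjusted p = 0.388) did not pass.

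**Figure D4:**
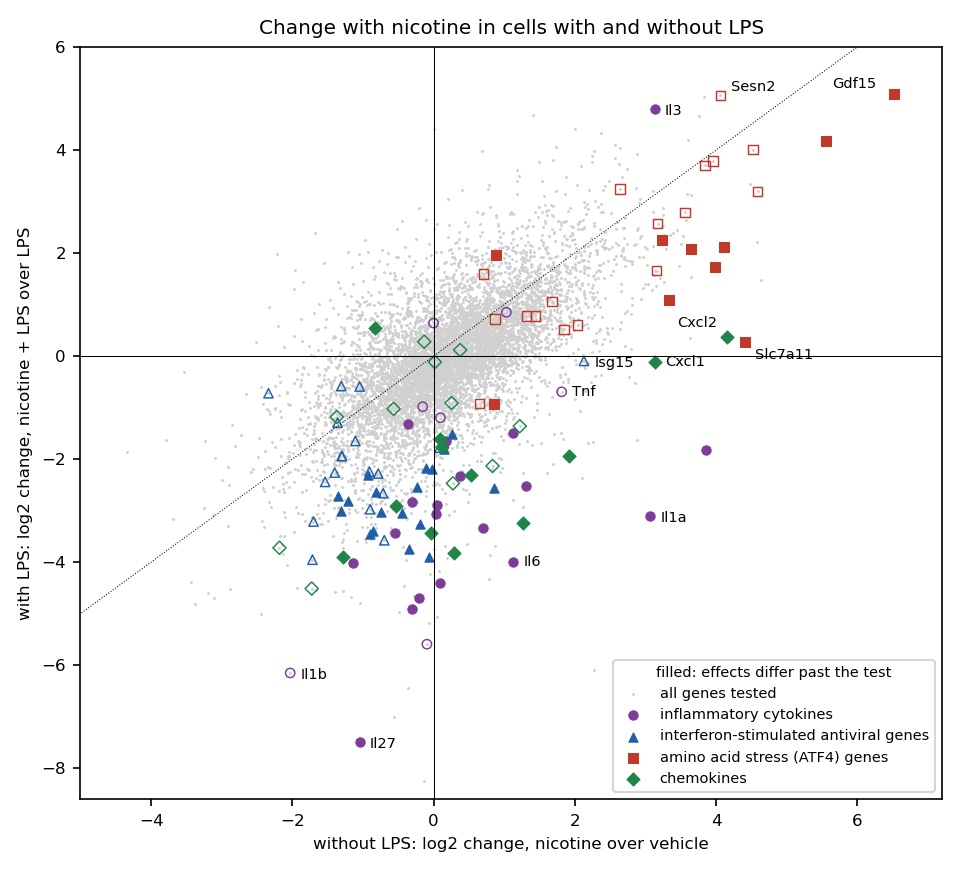
Each point is a gene, with its log2 change with nicotine in cells without LPS on the x axis and in cells with LPS on the y axis (means of both genotypes); 4 lists are coloured, filled where the effects differed past the test, and the dotted line marks equal effects. Amino acid stress genes such as Sesn2 and Gdf15 lie high on both axes, while Cxcl2, Slc7a11, Il1a and Il6 lie to the right of 0 and near or below 0 in height.

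All 4403 called genes changed in the same direction in knockout and wild type cells and differed in size. The spread in that test is in part the difference between genotypes, so a call favours genes in which they agree. Among genes that rose the median log2 change was 1.04 in knockout and 1.17 in wild type pairs, and among those that fell -1.13 and -1.21. Of 2319 genes that fell, 1375 (59.3%) fell by more in wild type, and of 2084 that rose 1338 (64.2%), beside 57.9% of all genes tested. In the antiviral list the median was -1.90 in knockout and -3.08 in wild type cells, with 34 of 36 larger in wild type. In the GTPase list it was -1.64 in knockout and -3.22 in wild type cells, with 16 of 17 larger in wild type. In the amino acid stress list it was 2.09 in knockout and 1.92 in wild type cells, with 7 of 27 larger in wild type. Single genes with the largest differences between genotypes were Csf2, Cxcl3 (-2.26 in knockout and -6.76 in wild type), Il1b (-4.05 in knockout and -8.25 in wild type), Erdr1 (1.15 in knockout and -2.10 in wild type), Ccl17 (-0.55 in knockout and -3.72 in wild type) and Lcn2 (-2.72 in knockout and -5.74 in wild type). No test of these differences was run, and with 1 library a group genotype cannot be told apart from the preparation of cells.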

How the data were processed

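Gene expression was measured by RNA sequencing of poly(A) RNA from cultured mouse peritoneal macrophages, 1 library for each of 8 groups, with a TruSeq kit that does not mark strand, per the labels' protocols. The authors deposited 1 table of FPKM values. Per the submitters' processing notes, CASAVA 1.8, HISAT2, Cufflinks, Cuffdiff and the mm10 build were used, with roles, annotation and depth not given in the sources used here, so no counting error is given. For repeated symbols 1 line was kept, leaving 24339 genes, and 0 columns were left unused. Samples were grouped by their titles. Values were taken as log2(FPKM + 1), and genes with at least 5 FPKM in any of the 4 libraries were tested in limma 3.58.1 (R 4.3.3) with a variance trend and genotype as a block (1 residual degree of freedom, prior 4.11), with Benjamini-Hochberg adjustment at 0.05. The difference between the effects with and without LPS came from all 8 libraries. A second rule needed a change of 2-fold in the same direction in both genotypes. Scripts were tested on simulated data. Named genes were the 15 largest called rises and falls, the 6 largest differences between genotypes, the lowest and highest log2 change of each of 33 pathway and 8 marker lists, and genes the study's question concerns; further list members were named after their values were seen. Some genes that the rule names are not reported here. The comparison, its lists and its tests were chosen with earlier results of these data known. Coordinates are GRCm38, and promoter sequences are RefSeq's (GRCm38.p6). Alternatives were other pseudocounts (0.1 and 5), filters, scalings, a fit without the genotype block, one of all 8 libraries, and leaving out each library. Tables used Python 3.11.15 with pandas 2.3.3 and NumPy 2.4.6, and figures Matplotlib 3.10.9.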

Additional observations from a re-analysis of the deposited data

Results flagged for a closer look

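The effect of nicotine differed between cells with and without LPS in 2740 genes (limma, all 8 libraries, adjusted p under 0.05), among them 23 of 36 genes examined by name, the largest rises and falls and the genes of the question. Differences are the log2 effect under LPS minus the log2 effect without LPS.

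Among the genes with the largest falls under LPS, the difference was -8.11 for U90926, -6.45 for Nos2, -6.44 for Il27, -6.08 for Ch25h, -5.12 for Slfn4, -5.11 for Il1bos, -4.6 for Il12a, -4.5 for Csf3, -4.47 for Upp1 and -3.75 for Adora2b. Among genes of the study's question it was -5.12 for Il6, -2.14 for Jak2 and -2.07 for Stat3. Nos2, Il27, U90926, Il1bos, Il12a and Csf3 had at most 2.11 FPKM in each library without LPS. Nicotine could lower them little there, so their fall under LPS by itself gave a lower effect under LPS. Ch25h, Adora2b, Upp1 and Il6 were also low without LPS (at most 2.96, 3.89, 5.91 and 6.33 FPKM), so the same limit applies to them in part.

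Among the genes with the largest rises under LPS, the effect was lower under LPS for Gdf15 (-1.45) and Trib3 (-1.37). It was higher under LPS for Eif3j1 (4.4), Htr2a (3.28), Cxcr4 (3.27), Flcn (1.95), Il3 (1.67), Rora (1.52), Samd11 (1.19) and Impact (0.899).

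Erdr1 went opposite ways in the genotypes under LPS, higher with nicotine in knockout and lower in wild type cells, with a wild type change 3.25 below the knockout change on the log2 scale (-3.25). This difference was not tested.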

How the results depend on the processing

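The count of 4403 changed genes was 163 with no filter on low values (the cause was not tested) and between 655 and 1934 with 1 library left out, where 3 libraries remain and the difference between genotypes enters the spread. It was 3217 without the genotype block, 4918 in a fit of all 8 libraries and 4328 to 5311 under the other settings. The count of genes 2-fold apart in both genotypes was 2075, and 1317 with a pseudocount of 5. Of 202 called genes named here, 200 kept their direction in each of the 13 settings, Apoc2 and Tnf being the exceptions, and 164 kept the call in each setting with all libraries and a filter. Without the block 33 of the named genes lost the call, among them Il10, Stat3, Lcn2, Atf3, Gata6 and Jag1.

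With quantile scaling the sign turned for Tnf (0.0674), Cxcl1 (0.763), Isg15 (0.812), Lyz2 (0.194), Adgre1 (0.249) and Ms4a1 (0.133). With 1 library left out, log2 changes that crossed 0 ran from -0.35 to 0.144 for Adgre1, -1.9 to 0.0396 for Apoc2, -1.4 to 2.74 for Cd209a, -0.999 to 0.761 for Cxcl1, -0.28 to 1.36 for Cxcl14 and -0.0185 to 0.753 for Cxcl2. They ran from -0.133 to 0.729 for Eif3j2, -1.67 to 0.718 for Erdr1, -1.62 to 2.9 for Ifnb1, -0.0352 to 1.16 for Ifngr1, -1.57 to 0.0738 for Irgm1, -0.316 to 0.127 for Isg15, -0.389 to 0.168 for Lyz2, -0.14 to 0.0764 for Ms4a1 and -2.28 to 0.0923 for Nr1d1. The labels give no replicate numbers, so the pairing used is that by genotype, with 4403 genes in the reported test and 3217 without it.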
